A study of Homo sapiens with 3 samples.

Results

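The cells described here are the least proliferative cells of 3 cultures of the H460 lung carcinoma line, set against the rest of their own culture and against each other. They were chosen by a score over 20 cell cycle genes, computed in every cell with at least 5000 unique molecular identifiers (UMIs, each counting 1 captured RNA molecule). The score summed the UMIs of 10 mitotic genes (CCNB1, CCNB2, CDC20, PLK1, UBE2C, CENPF, TOP2A, TPX2, HMMR and CDKN3) and 10 S phase genes (PCNA, MCM2 to MCM7, GINS2, TYMS and CLSPN) and was scaled to 10000 UMIs per cell. The 20% of cells with the lowest score within each library, called low cells below, made up 2450 of the 12251 cells with enough UMIs and of the 14638 cells in all. There were 776 low cells and 3104 others in mdR-H460, 904 low cells and 3617 others in ldR-H460, and 770 low cells and 3080 others in H460.

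A cell that is not dividing can be resting between divisions, held in G1, arrested for good as in senescence, or differentiated, and RNA levels alone do not separate these states. Genes for DNA replication are switched on by E2F factors as a cell passes from G1 into S phase, and genes for mitosis are switched on later through the MuvB complex with B-MYB and FOXM1. In resting cells the same MuvB core joins with p130 and E2F4 in the DREAM complex, which keeps both sets of genes low.

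H460 is an established large-cell lung carcinoma line with wild-type p53. It gave rise to both other cultures, mdR-H460, labelled mid-term dR-H460, and ldR-H460, labelled long-term dR-H460, in a study of a reprogrammed cancer cell model and drug resistance. The growth notes, given alike for all 3, tell how reprogrammed cancer cells were made on a feeder layer of gamma-irradiated human fibroblasts in conditioned Pluriton medium. The notes used here end before the later steps, so the agents that set mdR-H460 and ldR-H460 apart from H460 and the time each was kept are not given here. The derived cultures were run once each, as was H460. With 1 library per culture, folds and intervals describe these libraries. The intervals cover counting error only, and no p-value can be given.

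Libraries held 66624830 UMIs in 5151 mdR-H460 cells, 60468481 UMIs in 4956 ldR-H460 cells and 66192074 UMIs in 4531 H460 cells. Cells under 5000 UMIs, which were left out, numbered 1271 in mdR-H460, 435 in ldR-H460 and 681 in H460. Pairs of libraries shared 24 to 36 cell barcodes, and 0 barcodes occurred in all 3. The epithelial keratins KRT8 and KRT18 were detected in low cells and rest of all libraries, whereas EPCAM was under 1 CPM everywhere (UMIs scaled to a total of 1000000). The lung lineage marker NKX2-1 was under 1 CPM in mdR-H460 and H460, and CDH1, NAPSA, SFTPB and SFTPC were not analysed here.

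Low cells were shallower than the rest, most of all in mdR-H460. The median was 9624 UMIs in low cells and 17305 in the rest of mdR-H460, 10598 and 13363 in ldR-H460, and 13049 and 17344 in H460. Median detected genes followed, with 2152 and 3172 in mdR-H460, 2270 and 2818 in ldR-H460, and 2760 and 3425 in H460. Less RNA per cell and the low score moved together here, and the part of depth in the results was not tested beyond the depth-matched values given below. Those take the lowest 20% within each of 10 bins of depth, which brings the medians in mdR-H460 to 15583 UMIs in low cells and 15592 in the rest. The low cells of mdR-H460 chosen so also held more cycle RNA. Their median log2 ratio to the rest over G2 and mitosis genes outside the score was -1.99, against -3.78 without matching. Depth and cycle RNA thus changed together there, and their parts in the depth-matched values were not tested apart. Mitochondrially encoded RNA took a median of 5.41% of UMIs in low cells and 5.22% in the rest of mdR-H460, 7.0% and 6.89% in ldR-H460, and 4.65% and 4.76% in H460.

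The lowest scores were not equally low in the 3 cultures. The median score of low cells was 1.12 UMIs per 10000 in mdR-H460, 4.89 in ldR-H460 and 0.877 in H460, and that of the rest was 19.1, 18.2 and 13.7. The last cell inside the cut and the first outside it had scores of 2.3759 and 2.3762 in mdR-H460, 9.9432 and 9.9475 in ldR-H460, and 1.8460 and 1.8475 in H460. A score of 0 was found in 245 low cells of mdR-H460 (31.6%), 77 of ldR-H460 (8.52%) and 235 of H460 (30.5%). With the H460 cut used for all, 650 of the mdR-H460 cells (16.8%) and 218 of the ldR-H460 cells (4.82%) were at or below it. These values chose the cells and are given as a description. Cells with next to no cycle transcripts were thus a smaller share of ldR-H460 than of the other cultures at this depth.

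Promoters of mitotic genes are known to share short elements, so those of 4 mitotic score genes and of MKI67, which is not in the score, are printed here from RefSeq (GRCh38.p14). Each line gives the 110 bases before the annotated start of transcription, 5′ to 3′ in the direction of the gene. Capitals mark the cell cycle homology region (CHR, searched as TTTGAA or TTCGAA on either strand), to which MuvB complexes are known to bind, and CCAAT or its complement ATTGG, the box bound by NF-Y. In HMMR and MKI67 some of these matches overlap or abut, so 1 run of capitals can hold more than 1 match.
CCNB2, chr15:59105036-59105145, plus strand: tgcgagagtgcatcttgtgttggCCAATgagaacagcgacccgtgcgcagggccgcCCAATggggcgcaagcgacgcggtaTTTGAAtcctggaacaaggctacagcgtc
CDC20, chr1:43358871-43358980, plus strand: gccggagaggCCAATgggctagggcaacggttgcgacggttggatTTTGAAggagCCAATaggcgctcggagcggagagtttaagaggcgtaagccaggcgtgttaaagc
PLK1, chr16:23678779-23678888, plus strand: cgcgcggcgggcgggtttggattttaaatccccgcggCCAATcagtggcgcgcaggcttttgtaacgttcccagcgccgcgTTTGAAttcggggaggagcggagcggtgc
HMMR, chr5:163460522-163460631, plus strand: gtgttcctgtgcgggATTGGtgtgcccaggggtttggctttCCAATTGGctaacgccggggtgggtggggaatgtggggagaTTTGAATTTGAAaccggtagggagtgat
MKI67, chr10:128126424-128126533, minus strand: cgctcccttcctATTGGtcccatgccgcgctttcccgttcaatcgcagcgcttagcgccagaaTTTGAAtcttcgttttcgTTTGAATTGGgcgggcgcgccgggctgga

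In windows from 250 bases before to 50 after the start, a CHR match was present in 7 of the 8 mitotic score genes with a window and in 1 of the 8 S phase score genes with one. CCAAT was present in 8 of 8 and 6 of 8. Among 38 further G2 and mitosis genes, none of them in the score, 29 held a CHR match (76.3%), and among 33 further S phase genes 4 did (12.1%). Of all 27305 genes with a window, 19.5% held a CHR match and 39.7% held CCAAT. Of the 414 genes with a window that were at least 1.5-fold lower in low cells of all 3 cultures (below), 110 held a CHR match (26.6%), and of the 59 that were higher in all 3, 12 did (20.3%). The matches are a description of letters in these windows.

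Among genes of at least moderate level, more were lower than higher in low cells. Score genes were left out, genes had to reach 10 CPM in low cells or the rest, and called means at least 1.5-fold apart. In mdR-H460, 841 of 6100 genes were higher (13.8%) and 1234 lower (20.2%). In ldR-H460, 359 of 6186 were higher (5.80%) and 1011 lower (16.3%), and in H460, 257 of 6481 were higher (3.97%) and 866 lower (13.4%). Taken over every gene measured, the log2 ratio had a median of -0.10 in mdR-H460, -0.17 in ldR-H460 and -0.07 in H460. Among 5540 genes measured in all 3, 81 were higher in every culture (1.46%) and 522 lower in every culture (9.42%). Of the genes higher in mdR-H460 among these 5540, 319 of 599 passed 1.5-fold in that culture alone, against 31 of 270 in ldR-H460 and 14 of 144 in H460. Of the genes past 1.5-fold, 73.8% were lower in ldR-H460 and 77.1% in H460, but 61.6% and 64.2% with DESeq2 size factors, and 58.4% in ldR-H460 with totals that leave out mitochondrial and ribosomal protein RNA. With no CPM filter the counts of higher and lower genes were 4543 and 2652 in mdR-H460, 3046 and 2266 in ldR-H460, and 2680 and 2445 in H460. There a sum of 0 was set to 3 UMIs, which in mdR-H460 is 0.351 CPM in low cells and 0.0538 CPM in the rest. A gene with 0 UMIs in low cells and a few in the rest can then count as higher in low cells. The direction of the counts without a filter is therefore not read. All these counts rest on cells that the score itself chose, so nothing is read from their size.

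Cell cycle genes outside the score were low with it. The G2 and mitosis list was at a median log2 ratio of -3.78 in mdR-H460 (40 of 40 measured genes at least 1.5-fold lower), -1.94 in ldR-H460 (40 of 40) and -3.63 in H460 (38 of 39). The S phase list was at -3.00 in mdR-H460 (33 of 33), -0.89 in ldR-H460 (31 of 34) and -2.98 in H460 (36 of 36). MKI67, the Ki-67 protein that coats mitotic chromosomes (chr10:128096659-128126385, GRCh38), had 1.99 CPM in low cells (exact 95% Poisson interval 1.16 to 3.19) and 91.2 CPM in the rest of mdR-H460. It had 26.5 CPM (23.4 to 29.9) and 107 CPM in ldR-H460, and 1.78 CPM (1.07 to 2.78) and 114 CPM in H460. The low cells of ldR-H460 therefore held a Ki-67 level far above that of the other low cells, while the rest of all 3 lay close together. GTSE1, a mitotic microtubule-binding protein, was down to 5 UMIs in mdR-H460 low cells and 3 UMIs in H460 low cells, against 39 in ldR-H460 low cells.

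Genes for the steps into S phase also differed between the low cells of the cultures, whose cuts lay at unlike scores. RRM2, a subunit of ribonucleotide reductase, had 4.69 CPM in low cells and 122 CPM in the rest of mdR-H460, 32.5 and 102 CPM in ldR-H460, and 2.91 and 120 CPM in H460. E2F1, the activator of the G1 to S genes, had 2.23 and 25.1 CPM in mdR-H460, 21.1 and 27.1 CPM in ldR-H460, and 3.00 and 42.1 CPM in H460. CDT1, which loads the replicative helicase in G1, had 3.16 and 35.0 CPM in mdR-H460, 38.2 and 53 CPM in ldR-H460, and 2.72 and 34.0 CPM in H460. E2F1 and CDT1 in ldR-H460 low cells were within 1.5-fold of the rest, at log2 ratios of -0.36 and -0.47. The replication-dependent histone HIST1H4C had 106 and 878 CPM in mdR-H460, 472 and 1119 CPM in ldR-H460, and 92.8 and 906 CPM in H460. Histone messages of this kind mostly lack a poly(A) tail, and near-identical copies of the gene exist, so its level is uncertain.

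Not every histone gene was low. HIST1H1C, which encodes a linker histone, had 169 CPM in low cells and 48.3 CPM in the rest of mdR-H460, 56.2 and 27.2 CPM in ldR-H460, and 135 and 77.4 CPM in H460. HIST1H2BD had 19.9 and 3.59 CPM in mdR-H460, 6.26 and 3.12 CPM in ldR-H460, and 8.82 and 4.69 CPM in H460. Of the histone genes measured, 4 of 10 were higher and 5 lower in mdR-H460, and 1 was higher and 6 lower in ldR-H460 and in H460. RPL39L stood apart from the other ribosomal protein genes, whose medians were 0.02, 0.09 and 0.05 on the log2 scale. It had 22.3 CPM in low cells and 61.3 CPM in the rest of mdR-H460, 74.2 and 106 CPM in ldR-H460, and 22.6 and 82.2 CPM in H460.

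**Figure D1:**
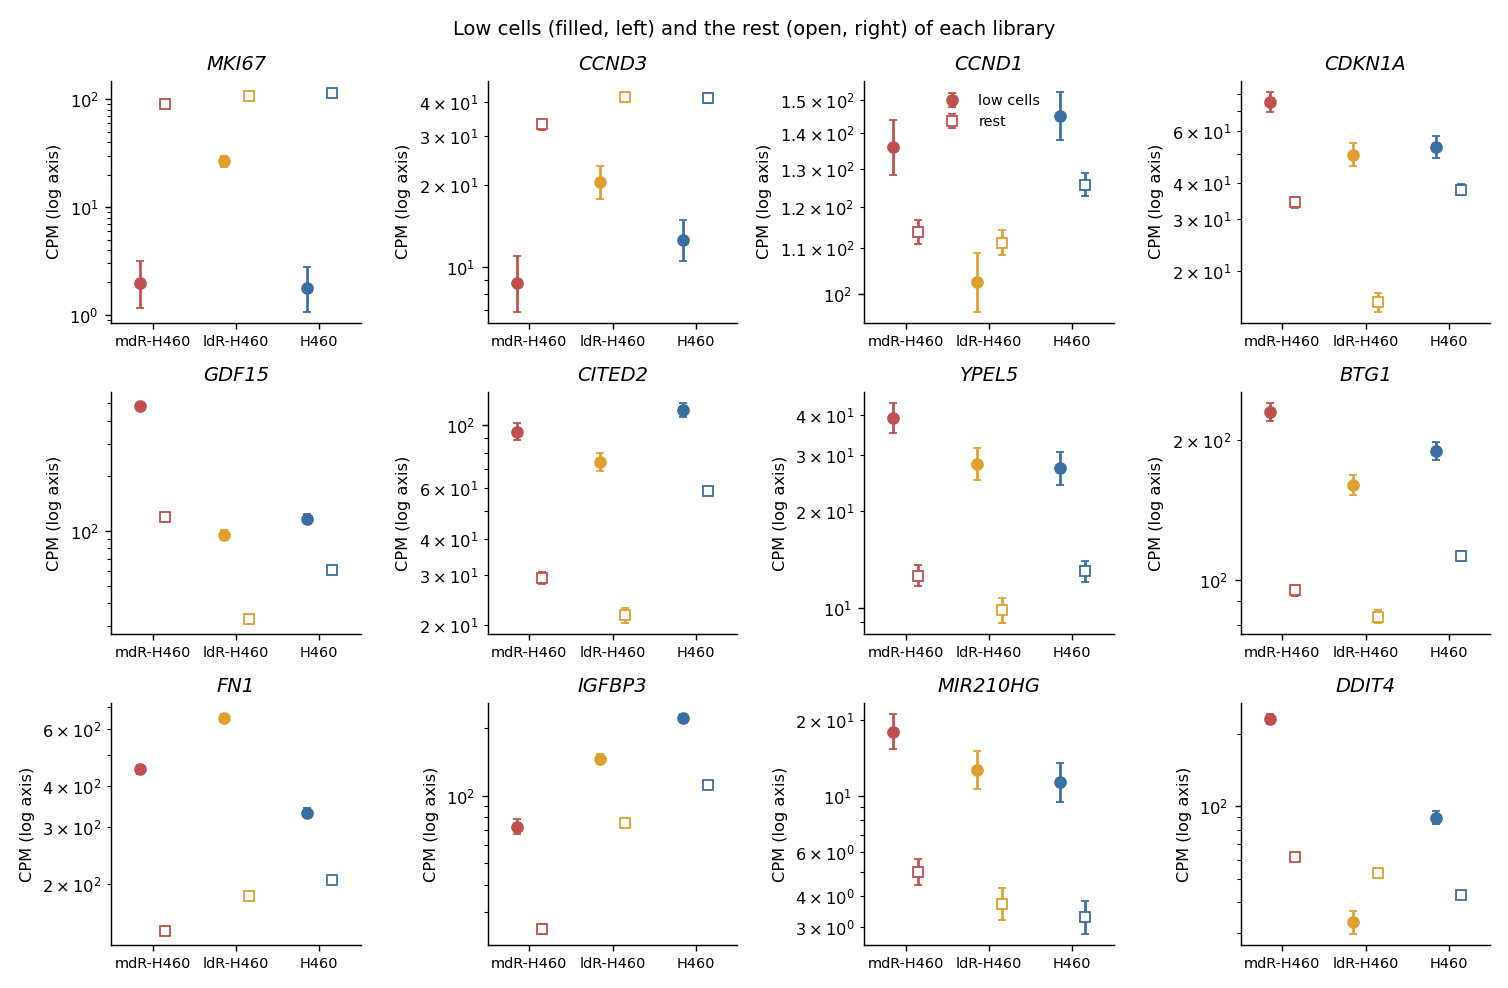
CPM (log axis) of 12 genes in low cells (filled, left) and the rest (open, right) of mdR-H460, ldR-H460 and H460, 1 library each, with exact 95% Poisson intervals that cover counting error only. MKI67 and CCND3 were lower and CDKN1A, GDF15, CITED2, YPEL5, BTG1, FN1, IGFBP3 and MIR210HG higher in low cells of each library, while DDIT4 was lower in ldR-H460 low cells and higher in those of the other libraries.

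Among regulators of the G1 machinery, CDKN1A was higher and the D-type cyclin CCND3 lower in low cells of each culture. CDKN1A encodes the p53-induced CDK inhibitor p21 (chr6:36676460-36687339, GRCh38). It had 75.4 CPM in low cells (95% interval 69.7 to 81.5) and 34.2 CPM in the rest of mdR-H460, 49.9 CPM (45.6 to 54.4) and 15.6 CPM in ldR-H460, and 52.9 CPM (48.6 to 57.5) and 37.9 CPM in H460. The ratio was 2.20-fold in mdR-H460 (2.01 to 2.41), 3.20-fold in ldR-H460 (2.85 to 3.58) and 1.40-fold in H460 (1.27 to 1.53). The highest level was in mdR-H460 low cells, while the largest ratio was in ldR-H460, whose other cells held the least.

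Of the INK4 inhibitors, CDKN2C was lower in low cells of mdR-H460 and H460 and within 1.5-fold of the rest in ldR-H460. CDKN2C, which encodes p18 and binds CDK4 and CDK6, had 7.73 CPM in low cells and 17.6 CPM in the rest of mdR-H460, 16.4 and 22.8 CPM in ldR-H460, and 4.69 and 11.8 CPM in H460. CDKN2D, which encodes p19, was under 10 CPM in every set and had 4.69 and 7.91 CPM in mdR-H460, 4.97 and 9.11 CPM in ldR-H460, and 3.47 and 7.70 CPM in H460. CDKN1B, which encodes p27, was under 5 CPM in every set. CDKN2A and CDKN2B, which encode the senescence-linked p16 and p15, were not analysed here.

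CCND3 had 8.79 CPM in low cells and 33.2 CPM in the rest of mdR-H460, 20.5 and 41.6 CPM in ldR-H460, and 12.6 and 41.3 CPM in H460. Its relative CCND1 stayed near the level of the rest, with 136 and 114 CPM in mdR-H460, 103 and 111 CPM in ldR-H460, and 145 and 126 CPM in H460. CDK4 had 82.6 and 202 CPM in mdR-H460, 122 and 177 CPM in ldR-H460, and 96.9 and 208 CPM in H460. CDK6, the other partner of the D cyclins, was within 1.5-fold of the rest in each culture, at log2 ratios of 0.19, 0.15 and 0.14. CCNG2, an unusual cyclin linked to cell cycle exit, had 12.4 and 3.24 CPM in mdR-H460, 5.26 and 1.47 CPM in ldR-H460, and 16.4 and 9.37 CPM in H460. CCND3 was thus lower in low cells of each culture and CDK4 in those of mdR-H460 and H460, while CDK4 in ldR-H460 was within 1.5-fold of the rest at a log2 ratio of -0.54. With depth matched, CCND3 in ldR-H460 had 27.3 CPM in low cells and 40.7 CPM in the rest, and CDK4 in mdR-H460 had 134 and 200 CPM, both under 1.5-fold.

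The 81 genes higher in low cells of every culture included known regulators of rest and growth restraint. CITED2, a transcriptional co-regulator that limits HIF activity, had 94.7 CPM in low cells and 29.1 CPM in the rest of mdR-H460, 74.4 and 21.6 CPM in ldR-H460, and 113 and 58.8 CPM in H460. YPEL5 had 39.0 and 12.6 CPM in mdR-H460, 28.1 and 9.84 CPM in ldR-H460, and 27.2 and 13 CPM in H460. BTG1, an antiproliferative gene that acts with the CCR4-NOT complex, had 230 and 95 CPM in mdR-H460, 160 and 83.3 CPM in ldR-H460, and 189 and 112 CPM in H460. PNRC1, a nuclear co-regulator, was 2.26-fold higher in mdR-H460, 2.27-fold in ldR-H460 and 2.01-fold in H460. KDM5B, an H3K4 demethylase known from slow-cycling melanoma cells, had 20.7 and 7.94 CPM in mdR-H460, 14.3 and 6.19 CPM in ldR-H460, and 38.5 and 12.6 CPM in H460. The antiproliferative and quiescence list had median log2 ratios of 1.04 in mdR-H460 (11 of 16 measured genes higher), 0.45 in ldR-H460 (7 of 16) and 0.72 in H460 (11 of 19, with 1 lower). With depth matched the medians were under 1.5-fold, at 0.34 in mdR-H460 with 6 higher, 0.34 in ldR-H460 with 5, and 0.57 in H460 with 9. CITED2 kept its contrast then, with 73.9 and 28.8 CPM in mdR-H460, 58.7 and 23.5 CPM in ldR-H460, and 107 and 57.8 CPM in H460.

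A few of the 81 genes are known to respond to hypoxia, although BNIP3L was the 1 member of the glycolysis and hypoxia list among them. MIR210HG, the host transcript of the hypoxia-induced miR-210 (chr11:565660-568457, GRCh38), had 18.0 CPM in low cells and 5.00 CPM in the rest of mdR-H460, 12.7 and 3.73 CPM in ldR-H460, and 11.4 and 3.29 CPM in H460. Its ratio was 3.61-fold in mdR-H460 (2.94 to 4.41), 3.41-fold in ldR-H460 (2.70 to 4.29) and 3.45-fold in H460 (2.72 to 4.37), and these intervals overlap. STC1, the secreted glycoprotein stanniocalcin, had 34.4 and 11.5 CPM in mdR-H460, 25.9 and 6.79 CPM in ldR-H460, and 34.2 and 13.4 CPM in H460. BNIP3L, a mitophagy receptor, had 62.1 and 20.5 CPM in mdR-H460, 33.7 and 13 CPM in ldR-H460, and 43.8 and 15.0 CPM in H460. BHLHE40, a transcriptional repressor, was 1.72-fold, 1.91-fold and 2.73-fold higher in mdR-H460, ldR-H460 and H460, but with depth matched it had 16.0 and 12.9 CPM in mdR-H460. Glycolysis and hypoxia genes as a list were mostly within 1.5-fold of the rest, with medians of 0.51 (6 of 14 higher), 0.29 (1 of 11) and 0.37 (4 of 15) in the same order.

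Genes for some secreted and matrix proteins, picked here one by one and not as a list, were also among the 81. FN1, the matrix protein fibronectin (chr2:215360440-215436172, GRCh38), had 451 CPM in low cells and 144 CPM in the rest of mdR-H460, 650 and 184 CPM in ldR-H460, and 332 and 206 CPM in H460. The ratio was 3.13-fold in mdR-H460 (3.01 to 3.25), 3.53-fold in ldR-H460 (3.42 to 3.65) and 1.62-fold in H460 (1.56 to 1.68). With depth matched FN1 had 290 and 159 CPM in mdR-H460, 501 and 203 CPM in ldR-H460, and 280 and 213 CPM in H460, so that H460 was then under 1.5-fold. IGFBP3, which binds insulin-like growth factors, had 72.7 and 25.4 CPM in mdR-H460, 146 and 75.3 CPM in ldR-H460, and 222 and 112 CPM in H460. PAPPA, a protease that cleaves such binding proteins, had 44.9 and 13.4 CPM in mdR-H460, 15.4 and 3.55 CPM in ldR-H460, and 38.3 and 23.6 CPM in H460, where it was under 1.5-fold with depth matched (35.0 and 23.7 CPM). TGFB2, a growth inhibitor of epithelial cells, was 2.65-fold, 2.28-fold and 1.81-fold higher in mdR-H460, ldR-H460 and H460. The list of senescence-associated secreted factors, 3 of whose members were among the 81 (GDF15, IGFBP3 and SERPINE2), had medians of 1.17 in mdR-H460 (12 of 16 higher), 0.66 in ldR-H460 (9 of 15) and 0.50 in H460 (8 of 20, with 1 lower). IL6, the cytokine at the centre of that list, had 132 and 38.7 CPM in mdR-H460, 15.7 and 7.58 CPM in ldR-H460, and 228 and 154 CPM in H460, the last being under 1.5-fold.

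Collagens and other markers of fibroblasts, the feeder cell type, bear on these matrix genes. Of the 15 fibroblast markers, 11 were analysed and 6 to 10 of them had any UMI in a set. Their summed level was 15.7 CPM in low cells and 10.9 CPM in the rest of mdR-H460, 17.8 and 16.5 CPM in ldR-H460, and 39.3 and 28.7 CPM in H460. PDGFRA, THY1, FAP and POSTN were not analysed here. COL1A2 and DCN, which fibroblasts express strongly, were each analysed in 1 library, COL1A2 in ldR-H460 and DCN in H460, and were under 1 CPM there. The summed markers were higher in low cells of mdR-H460 and H460 and nearly level in ldR-H460, and single markers went both ways. TWIST2 had 6.33 CPM in low cells and 7.49 CPM in the rest of mdR-H460, and 8.15 and 10.8 CPM in ldR-H460. COL1A1 had 5.39 and 1.54 CPM in mdR-H460, and 1.79 and 1.01 CPM in ldR-H460. The part of these markers in the matrix genes was not tested.

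Targets of p53 were mixed. GDF15, a stress-induced member of the TGF-beta family (chr19:18374731-18389176, GRCh38), had 485 CPM in low cells (471 to 500) and 119 CPM in the rest of mdR-H460, 94.7 CPM (88.8 to 101) and 33.0 CPM in ldR-H460, and 117 CPM (110 to 123) and 61.2 CPM in H460. It is also induced by the integrated stress response. TP53I3 had 67.8 and 34.9 CPM in mdR-H460, 68.0 and 34.8 CPM in ldR-H460, and 70.4 and 44.4 CPM in H460, so its level in low cells was nearly the same in each. ZMAT3, an RNA-binding p53 target, was 1.93-fold higher in mdR-H460 and 1.86-fold in ldR-H460, but 1.26-fold in H460. The list as a whole had medians of 0.28 in mdR-H460 (6 of 18 higher), 0.31 in ldR-H460 (6 of 16) and 0.17 in H460 (3 of 18). With depth matched ZMAT3 in mdR-H460 was under 1.5-fold, and so was TP53I3 in H460, at 65.7 and 44.4 CPM.

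The nuclear-retained RNAs were higher in low cells too. MALAT1 had 11227 CPM in low cells and 5503 CPM in the rest of mdR-H460, 9458 and 5173 CPM in ldR-H460, and 14985 and 10394 CPM in H460. NEAT1, the scaffold of paraspeckles, had 360 and 186 CPM in mdR-H460, 562 and 260 CPM in ldR-H460, and 513 and 280 CPM in H460. With depth matched the ratio was smaller: MALAT1 had 8044 and 5816 CPM in mdR-H460, under 1.5-fold, 8424 and 5268 CPM in ldR-H460, and 13244 and 10621 CPM in H460. NEAT1 then had 290 and 188 CPM in mdR-H460, 513 and 261 CPM in ldR-H460, and 470 and 280 CPM in H460. Mitochondrially encoded genes had medians of 0.05, 0.01 and -0.05 in mdR-H460, ldR-H460 and H460. The highest share of such RNA in any cell used here was 9.998%, in the rest of ldR-H460. Cells with a higher share were absent, so these medians say nothing about them.

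**Figure D2:**
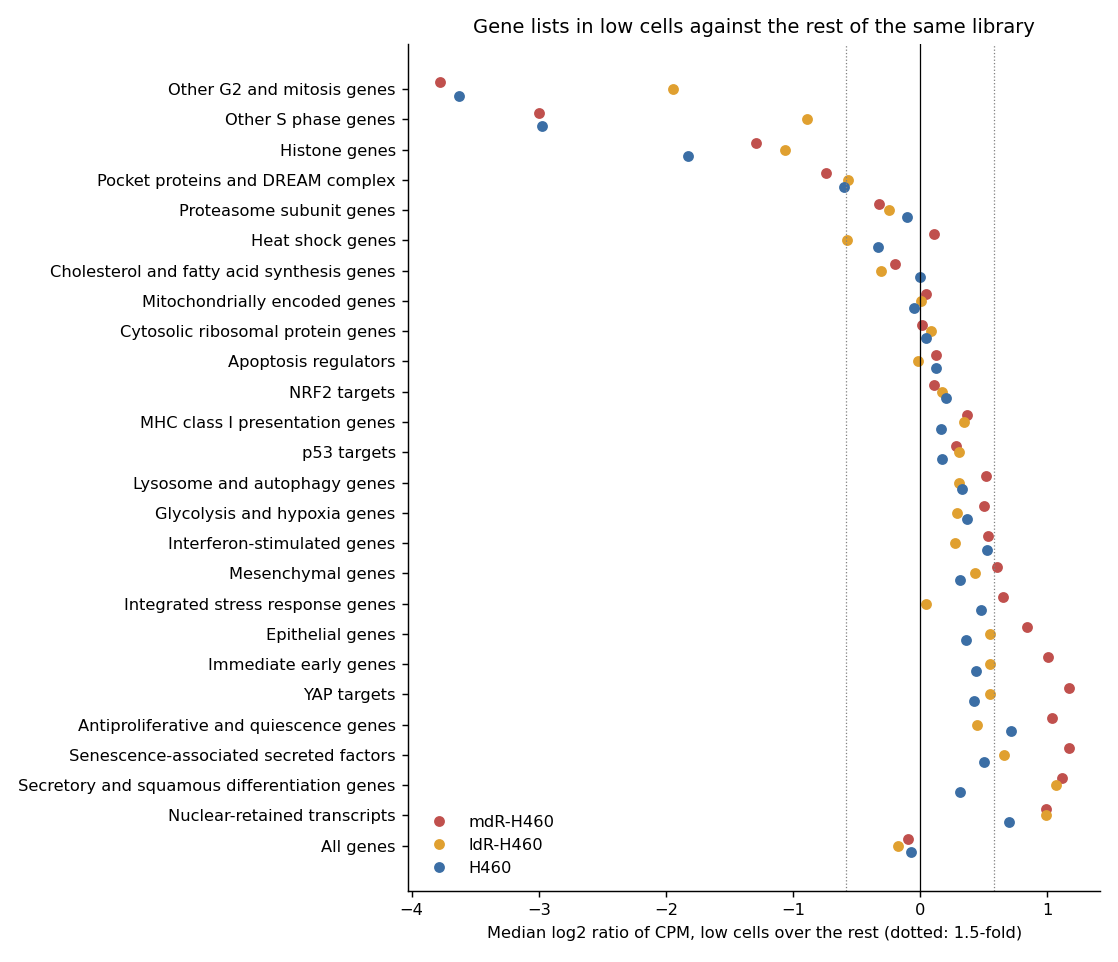
Median log2 ratio of CPM in low cells over the rest for gene lists, with 1 point per library and dotted lines at 1.5-fold. Cell cycle lists lay far to the left in mdR-H460 and H460 and less so in ldR-H460, ribosomal and mitochondrial genes lay near 0, and secretory, senescence-associated and antiproliferative lists lay to the right.

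Lists for YAP targets, epithelial, mesenchymal and lysosomal genes had higher medians in mdR-H460 than in the other cultures, each of which is 1 library. YAP targets had medians of 1.17 in mdR-H460 (8 of 9 higher), 0.55 in ldR-H460 (4 of 9) and 0.42 in H460 (2 of 9). CTGF, a matricellular YAP target, was 2.33-fold, 1.80-fold and 1.95-fold higher in mdR-H460, ldR-H460 and H460. Epithelial genes had medians of 0.84 (7 of 8), 0.55 (3 of 6) and 0.36 (3 of 7) in the same order, and mesenchymal genes 0.61 (4 of 8), 0.44 (4 of 8) and 0.32 (4 of 9). KRT19, an epithelial keratin, had 434 CPM in low cells and 146 CPM in the rest of mdR-H460, 72.9 and 33.3 CPM in ldR-H460, and 2457 and 1546 CPM in H460. JUP, the desmosomal protein plakoglobin, was 3.29-fold, 1.57-fold and 1.56-fold higher in mdR-H460, ldR-H460 and H460. Lysosome and autophagy genes had medians of 0.52 (9 of 20 higher), 0.31 (4 of 20) and 0.33 (2 of 22). Depth moved with these values. With depth matched, mdR-H460 had medians of 0.68 for YAP targets, 0.49 for epithelial genes, 0.09 for mesenchymal genes and 0.27 for lysosome and autophagy genes. In ldR-H460 they were then 0.38, 0.40, 0.38 and 0.19, and in H460 0.18, 0.37, 0.37 and 0.24, so the mesenchymal list was no longer highest in mdR-H460.

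Heat shock genes had medians of 0.11 in mdR-H460 (2 higher and 3 lower of 10), -0.57 in ldR-H460 (4 of 9 lower) and -0.33 in H460 (2 of 10 lower). HSP90AA1, the inducible HSP90, had 1761 CPM in low cells and 3791 CPM in the rest of mdR-H460, 1344 and 2574 CPM in ldR-H460, and 1292 and 2373 CPM in H460. HSPE1, a mitochondrial chaperonin, had 1069 and 2028 CPM in mdR-H460, 1277 and 1897 CPM in ldR-H460, and 1260 and 1890 CPM in H460. The 2 higher in mdR-H460, HSPA6 and HSPA1A, are inducible HSP70 genes whose values are given below. Proteasome subunit genes had medians of -0.32 in mdR-H460, -0.24 in ldR-H460 and -0.10 in H460. Nuclear genes for oxidative phosphorylation stayed at 0.02, -0.03 and 0.06.

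Levels were also taken across 5 equal bins of the score, of which bin 1 holds the low cells. The bins lie at unlike scores in the libraries. Median scores of bins 1 and 2 were 1.12 and 4.77 in mdR-H460, 4.89 and 12.5 in ldR-H460, and 0.877 and 3.43 in H460. In ldR-H460, FN1 and CDKN1A dropped most between bins 1 and 2. FN1 there had 650 CPM in bin 1, then 205, 170, 175 and 186 CPM. CDKN1A had 49.9 CPM and then 20.2, 15.3, 15.1 and 12.4 CPM in the same library. In H460, CDKN1A was alike in bins 1 and 2, at 52.9, 53.4, 28.5, 37.1 and 34.6 CPM from bin 1 to bin 5, while MKI67 had 1.78 and 9.08 CPM, S100A8 176 and 83.3 CPM, and HSPA6 27.8 and 91.4 CPM in these 2 bins. In mdR-H460 the levels changed over the first 3 bins, with GDF15 at 485, 311, 106, 72.3 and 61.5 CPM. Between bins 1 and 2, 95 of 5826 genes were at least 1.5-fold higher in bin 1 (1.63%) and 286 lower (4.91%) in mdR-H460. In ldR-H460 it was 323 of 6071 (5.32%) and 668 (11.0%), and in H460 26 of 6294 (0.413%) and 186 (2.96%). The share of genes apart between these bins was thus highest in ldR-H460 and lowest in H460. The gap in median score between the bins had the same order, and its part in these shares was not tested.

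**Figure D3:**
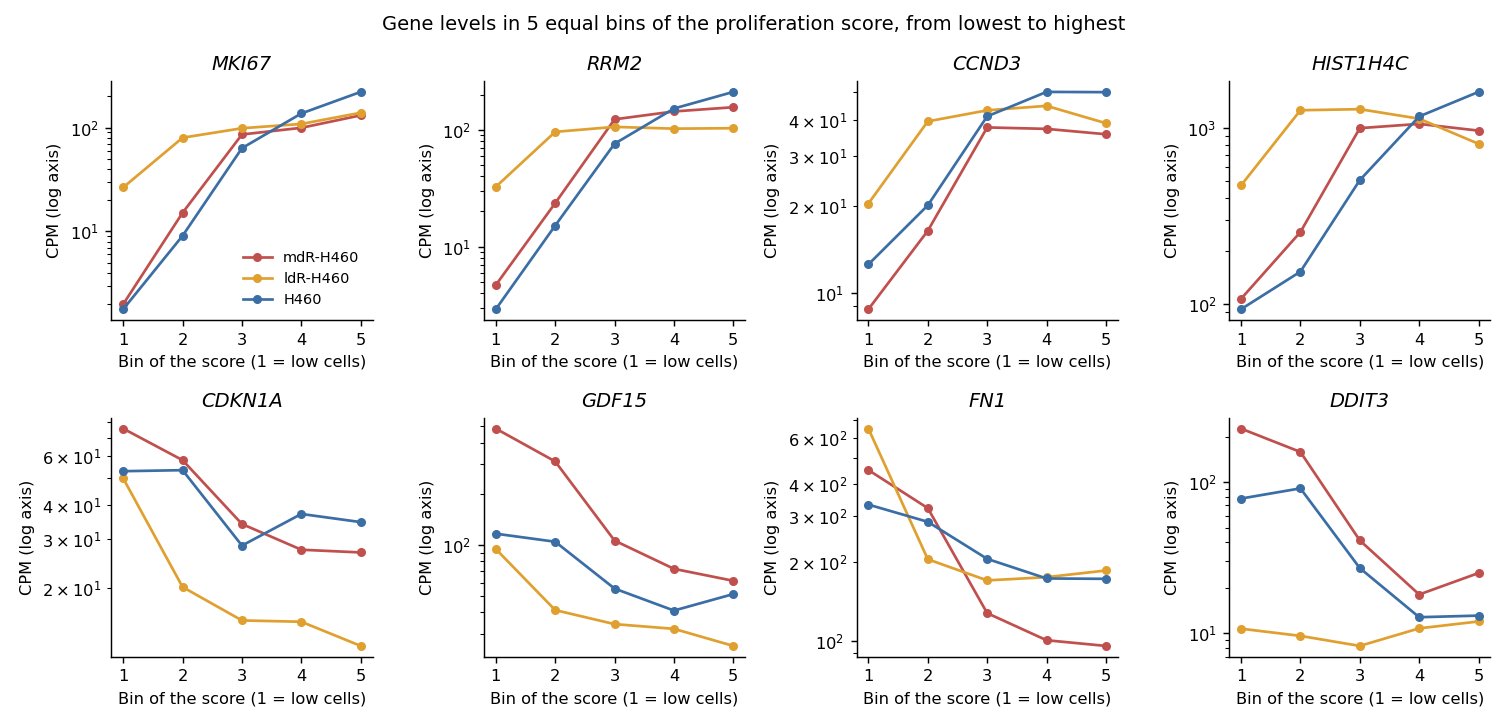
CPM (log axis) of 8 genes in the 5 equal bins of the score in each library, where 1 holds the low cells. The bins lie at unlike scores in the libraries. In ldR-H460, CDKN1A, GDF15 and FN1 were high in bin 1 and dropped at bin 2, whereas in mdR-H460 and H460 bins 1 and 2 were both above bins 3 to 5 for these genes.

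Low cells were also compared directly between cultures, which asks how the least proliferative cells of a derived culture differ from those of the parental line. In mdR-H460 against H460, 193 of 6193 genes were at least 2-fold higher (3.12%) and 376 lower (6.07%). Among the rest, 106 of 6390 were higher (1.66%) and 475 lower (7.43%). In ldR-H460 against H460, 374 of 6386 genes were higher (5.86%) and 638 lower (9.99%), and among the rest 204 (3.11%) and 522 (7.97%) of 6551. In ldR-H460 against mdR-H460, 331 of 6120 were higher (5.41%) and 415 lower (6.78%), and among the rest 158 (2.56%) and 163 (2.64%) of 6169. The derived cultures share H460 as the other side of these ratios. Of the called genes, 66.1% were lower in mdR-H460 against H460, but 55.4% with TMM factors and 53.7% with DESeq2 size factors in place of totals. In ldR-H460 against H460 it was 63.0%, but 52.7% with DESeq2 factors and 52.6% with totals that leave out mitochondrial and ribosomal protein RNA. In ldR-H460 against mdR-H460 it was 55.6%, but 40.9% with those totals. TMM and DESeq2 factors add 0.11 and 0.12 to the log2 ratios of both derived cultures over H460.

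The low cells of ldR-H460 held more residual cell cycle RNA than those of the other cultures. The G2 and mitosis list was at a median log2 ratio of 1.42 over H460 low cells (15 of 22 at least 1.5-fold higher, 3 lower) and at 1.28 over mdR-H460 low cells (15 of 21 higher, 1 lower). The S phase list was at 1.65 over H460 (19 of 22 higher) and 1.63 over mdR-H460 (21 of 22). Over all genes, 728 of 6386 were at least 1.5-fold higher against H460 low cells and 875 of 6120 against mdR-H460 low cells. MKI67 was 14.9-fold higher than in H460 low cells (9.34 to 25.1), with 26.5 against 1.78 CPM, and 0.943-fold in the rest. Set against the rest of each culture, 68 of 78 genes of both lists had a ratio at least 1.5-fold nearer to the rest in ldR-H460 than in H460, and 2 the opposite, while over all genes 511 of 6868 were higher (7.44%) and 187 lower (2.72%). Against mdR-H460 it was 68 of 76 and 0, with 427 (6.47%) and 384 (5.82%) of 6597 over all genes. PTTG1, the securin that guards sister chromatids, had 304 CPM in ldR-H460 low cells, 49.9 CPM in mdR-H460 and 34.2 CPM in H460. Since the score fixes how low these genes can be, this is a description of where the cut fell.

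With a common threshold most of this difference was gone. Against H460 low cells, the G2 and mitosis list of ldR-H460 was then at 0.033 (5 higher, 6 lower) and the S phase list at -0.35 (3 higher, 3 lower). Single genes stayed higher, with PTTG1 at 96.8 CPM in ldR-H460 and 34.2 CPM in H460, and CDT1 at 11.5 and 2.72 CPM (26 and 29 UMIs). Both were also higher in the rest of ldR-H460 than in that of H460, with PTTG1 at 516 and 210 CPM and CDT1 at 52.0 and 34.0 CPM. Of the 4521 ldR-H460 cells, 218 were at or below the H460 cut, and their G2 and mitosis list was at -3.43 and their S phase list at -2.79 against the rest of ldR-H460. MKI67 had 2.22 CPM in these 218 cells and 97.3 CPM in the rest. Other genes kept their contrast or widened it: FN1 had 1168 CPM in the 218 cells and 227 CPM in the rest, NEAT1 969 and 285 CPM, CITED2 119 and 27.1 CPM, CDKN1A 73.3 and 19.4 CPM, and GDF15 102 and 41.1 CPM. The low cycle genes of these 218 cells restate how the cells were chosen.

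For mdR-H460 the choice of cells by depth mattered more. Its cycle genes were as low relative to the rest as in H460, with 14 higher and 8 lower of 77 when the ratio was compared with that of H460 at 1.5-fold, and a median difference of 0.08. Over all genes, 562 of 6760 were higher (8.31%) and 198 lower (2.93%) in this comparison of ratios, so that 26.1% of those called were lower, but 46.0% with TMM and 49.7% with DESeq2 factors. With cells chosen within bins of depth, 60 of the 77 were higher and 0 lower, with a median of 1.28. MKI67 then had 23.0 CPM in low cells and 93.6 CPM in the rest of mdR-H460, 39.8 and 107 CPM in ldR-H460, and 3.76 and 118 CPM in H460. With depth matched, the summed Ki-67 RNA of mdR-H460 low cells therefore lay nearer to that of ldR-H460 than to that of H460. The median score of the same low cells was 1.25 in mdR-H460, 5.66 in ldR-H460 and 0.886 in H460. By that median mdR-H460 lay nearer to H460, so the sum does not describe the typical low cell. CDKN1A and GDF15 kept their direction with depth matched, with 57.8 and 35.2 CPM and with 337 and 125 CPM in mdR-H460.

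**Figure D4:**
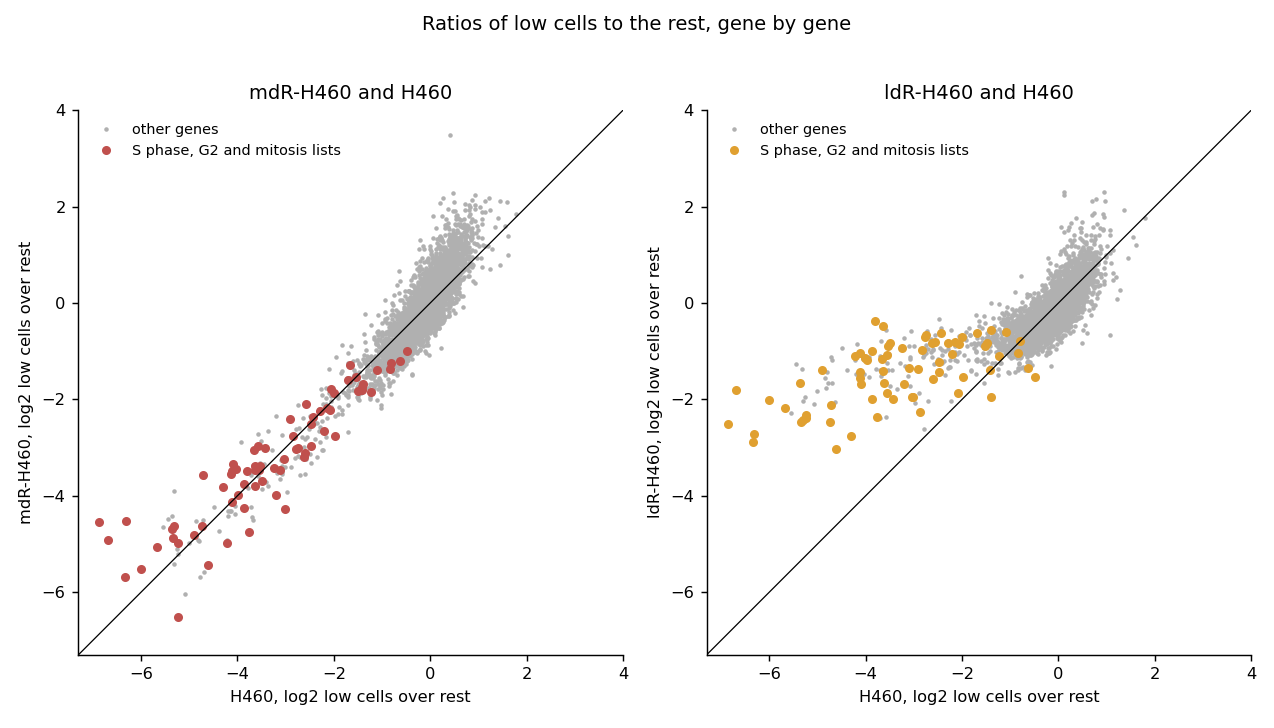
Log2 ratio of CPM in low cells over the rest, gene by gene, for mdR-H460 (left) and ldR-H460 (right) against the ratio in H460, with the diagonal drawn and genes of the S phase, G2 and mitosis lists in colour. In mdR-H460 these genes lay along the diagonal, and in ldR-H460 they lay above it, nearer to 0.

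Over the 5540 genes measured in all 3, the ratio of low cells to the rest was most alike between mdR-H460 and H460, though by little in ranks. Pearson's r was 0.91 for that pair, 0.83 for mdR-H460 and ldR-H460 and 0.74 for ldR-H460 and H460. Spearman's rho was 0.861, 0.850 and 0.815 in the same order. The cut lay at a higher score in ldR-H460, and its part in these values was not tested. These values are across genes, which are not independent, and part of the likeness comes from a score built on the same 20 genes in each library. Without the S phase, G2 and mitosis lists, r over 5470 genes was 0.90, 0.82 and 0.73 in the same order.

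The stress genes DDIT3, SESN2 and HSPA6 stood further above the rest in low cells of mdR-H460 than in those of the other libraries. DDIT3, the transcription factor CHOP of the integrated stress response (chr12:57516588-57521737, GRCh38), had 226 CPM in low cells (216 to 236) and 50.1 CPM in the rest of mdR-H460, 10.7 CPM (8.80 to 13) and 10.2 CPM in ldR-H460, and 77.8 CPM (72.6 to 83.3) and 33.4 CPM in H460. SESN2, a stress-induced inhibitor of mTORC1, had 32.3 and 7.44 CPM in mdR-H460, 4.57 and 4.58 CPM in ldR-H460, and 15.2 and 5.57 CPM in H460. HSPA6, a strictly inducible HSP70, had 30.0 and 2.69 CPM in mdR-H460, 3 and 5 UMIs in ldR-H460, and 27.8 and 20.9 CPM in H460. Higher levels were not particular to low cells. Bin 2 of the score in mdR-H460 had 158 CPM of DDIT3, 21.5 of SESN2 and 10.5 of HSPA6, below low cells but above bins 3 to 5. In H460, bin 2 was above low cells for DDIT3 (90.9 CPM) and HSPA6 (91.4 CPM) and below them for SESN2 (12.4 CPM). The integrated stress response list had medians of 0.66 in mdR-H460 (10 of 17 higher), 0.05 in ldR-H460 (2 higher and 3 lower of 16) and 0.48 in H460 (4 of 17). Between low cells it was at 0.91 in mdR-H460 over H460, with 12 of 17 at least 1.5-fold higher, against 423 of 6193 over all genes. The list was at 0.26 with 5 higher once the cells described next were left out.

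Part of that signal sat in few cells. In mdR-H460, 47 of 776 low cells had at least 5 UMIs per 10000 of HSPA6 plus DDIT3 (6.06%, exact 95% binomial interval 4.48 to 7.97), against 41 of 3104 others (1.32%, 0.95 to 1.79). In ldR-H460 it was 1 of 904 low cells and 0 of 3617 others, which allows up to 0.102%. In H460 it was 16 of 770 low cells (2.08%, 1.19 to 3.35) and 22 of 3080 others (0.714%, 0.448 to 1.08). Low cells thus held 47 of the 88 such cells of mdR-H460. Without these cells, SESN2 had 5.21 CPM in low cells and 3.83 CPM in the rest of mdR-H460, and TRIB3 61.0 and 57.3 CPM. DDIT3 had 21.7 and 16.1 CPM, but its drop follows from the choice of the cells left out. The list median in mdR-H460 then came to 0.13, with 4 genes higher. GDF15 kept its contrast, with 489 and 116 CPM, and so did CDKN1A, with 55.4 and 31.8 CPM. Heat shock genes were then at -0.74 in mdR-H460, with 0 higher and 5 lower, and the antiproliferative and quiescence list at 0.59, with 7 higher.

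Immediate early genes, which code for factors made within minutes of a stimulus, had a median of 1.01 in mdR-H460 (11 of 14 higher), 0.55 in ldR-H460 (6 of 14) and 0.44 in H460 (3 of 13, with 1 lower). Without the stress-gene cells it was 0.27 in mdR-H460, with 4 genes higher and 1 lower, and with depth matched 0.48, with 3 higher.

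**Figure D5:**
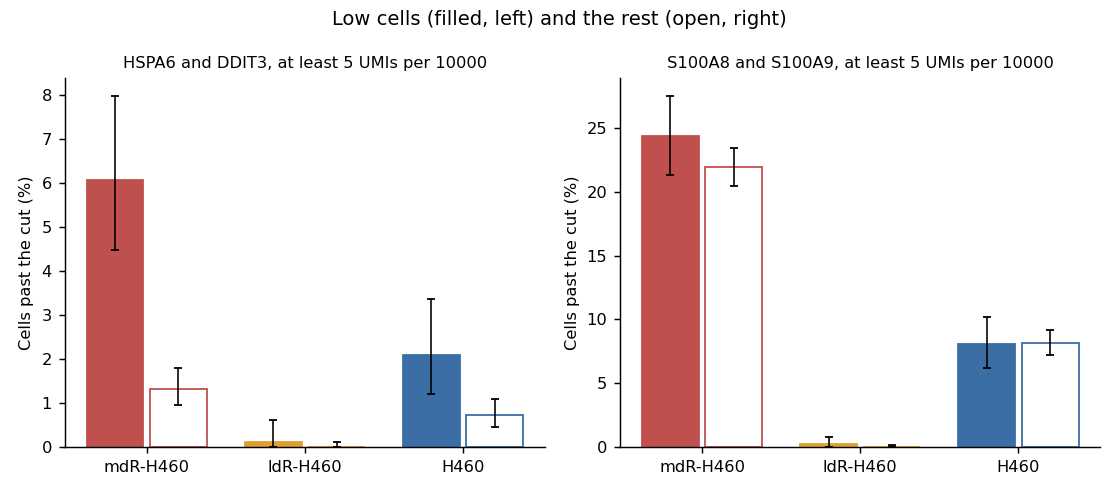
Share of cells with at least 5 UMIs per 10000 of HSPA6 plus DDIT3 (left) and of S100A8 plus S100A9 (right) in low cells (filled) and the rest (open) of each library, with exact 95% binomial intervals. The stress genes marked 6.06% of low cells and 1.32% of the rest of mdR-H460, while the S100 genes marked like shares of low cells and the rest.

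Cells marked by S100A8 and S100A9, the calprotectin subunits, took like shares of low cells and the rest. They made up 189 of 776 low cells (24.4%, 21.4 to 27.5) and 681 of 3104 others (21.9%, 20.5 to 23.4) in mdR-H460. In ldR-H460 they were 2 low cells and 1 other. In H460 they were 62 of 770 low cells (8.05%, 6.23 to 10.2) and 252 of 3080 others (8.18%, 7.24 to 9.21). The summed level of S100A8 nevertheless differed with the score in mdR-H460, at 164, 114, 64.4, 69.7 and 51.0 CPM from bin 1 to bin 5. With depth matched it was 157 CPM in low cells and 64.1 CPM in the rest. The list of secretory and squamous differentiation genes had medians of 1.12 in mdR-H460 (9 of 12 higher), 1.07 in ldR-H460 (6 of 8) and 0.31 in H460 (2 of 9). S100A8 in low cells of H460 was nearly confined to a few cells: after thinning every cell to 5000 UMIs, the 5% of low cells with the most held 99.5% of its UMIs, against a median of 19.2% over the genes measured. PAEP, a secreted lipocalin, had 89.8% of its UMIs in such cells of H460, and FN1 23.1%. In low cells of mdR-H460, such cells held 82.7% of the UMIs of S100A8 and 57.6% of those of IL6. The summed level of S100A8 in these low cells thus rests mostly on few cells, and its spread in the other bins was not tested. In low cells of ldR-H460, such cells held 31.9% of the UMIs of FN1, among the 15 highest values there.

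Some genes, named next, set the cultures apart in the same direction in low cells and in the rest. KRT19 was 5.66-fold lower in mdR-H460 low cells and 33.7-fold lower in ldR-H460 low cells than in H460, and 10.6-fold and 46.5-fold lower in the rest. PKIB, an inhibitor of protein kinase A, had 23.3 CPM in mdR-H460 low cells and 15.0 CPM in ldR-H460 low cells, against 1 UMI in H460 low cells. CDH11, a mesenchymal cadherin, had 0.351 CPM in mdR-H460 low cells (3 UMIs), 17.0 CPM in ldR-H460 and 198 CPM in H460. DSP, the desmosomal protein desmoplakin, had 18.3 CPM in mdR-H460 low cells and 7.95 CPM in ldR-H460 low cells, against 0.188 CPM in H460 low cells, a ratio of 97.4 (26.5 to 811) and 42.3 (11.3 to 356). FGG, a fibrinogen chain, had 489 CPM in mdR-H460 low cells, 26.7 CPM in ldR-H460 and 37.8 CPM in H460. ANKRD1, a YAP target, had 30.2 CPM in mdR-H460 low cells, 174 CPM in ldR-H460 and 2.53 CPM in H460. Each of these genes kept its order between cultures in the rest of the cells.

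IL24 and TGM2 differed between mdR-H460 and H460 more in low cells than in the rest. IL24, a cytokine of the IL-10 family, had 14.1 CPM in low cells (11.7 to 16.8) and 1.29 CPM in the rest of mdR-H460, 15 and 3 UMIs in ldR-H460, and 1.22 and 3.03 CPM in H460. TGM2, a transglutaminase, had 20.7 CPM in mdR-H460 low cells and 7.85 CPM in ldR-H460 low cells against 0 UMIs in H460 low cells, at least 73.7-fold and 27.9-fold higher over a floor of 3 UMIs per set. In the rest it was 16.3-fold and 4.84-fold higher.

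Other differences were as large or larger in the rest. ESM1, a secreted proteoglycan, had 36.1 CPM in low cells and 7.69 CPM in the rest of mdR-H460, 1 and 7 UMIs in ldR-H460, and 54.5 and 28.8 CPM in H460. Between mdR-H460 and H460 it was 1.51-fold lower in mdR-H460 low cells and 3.75-fold lower in the rest. The senescence-associated list was lower in ldR-H460 low cells than in H460 low cells, at a median of -2.02 with 18 of 20 at least 1.5-fold lower, and at -1.42 with 14 lower under the common H460 cut. In the rest it was at -2.33, with 17 of 18 lower. MHC class I presentation genes were at -0.70 in the same comparison of low cells, with 6 of 11 lower, and at -0.82 in the rest, with 8 of 12 lower. Over all genes, 1572 of 6386 were at least 1.5-fold lower between these low cells and 1220 of 6551 in the rest.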

How the data were processed

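Single-cell libraries of mdR-H460, ldR-H460 and H460 (1 each) were analysed from the deposited tables of UMI counts, whole-number counts per gene and cell. Per the labels' protocols they came from the 10x Chromium 3′ kit, which reads the 3′ end of messages, so levels are not per length. The submitters' processing notes name Cell Ranger 3.0.2, Seurat 3.0 and GRCh38. No source used here gives the annotation release. Gene positions come from GENCODE 29 by symbol.

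UMIs were summed over the low cells and over the rest of each library and scaled to a total of 1000000 (CPM) in Python 3.11.15 (numpy 2.4.6, scipy 1.17.1, pandas 2.3.3). Genes needed 10 CPM in the higher set, and folds of 1.5 (low cells against rest) or 2 (cultures) were counted. A sum of 0 was set to a floor of 3 UMIs for folds. A gene listed for some libraries was counted as 0 in the others, which applies to 2 of 569, 6 of 1012 and 1 of 746 genes called between low cells of mdR-H460 and H460, of ldR-H460 and H460, and of ldR-H460 and mdR-H460. Poisson, binomial and ratio intervals are exact, at 95%, and cover counting error only. No test was possible with 1 library per culture, and 0 p-values were computed. Scaling alternatives used TMM factors (edgeR 4.0.16) and DESeq2 1.42.0 size factors in R 4.3.3. The sums and ratios were checked on simulated data. Doublets were not removed. Genes named were drawn from the extremes of each comparison, up to 15 shared per direction, up to 4 per list, CDK inhibitors, G1 cyclins and kinases, and the 4 state genes. Not every gene so drawn is given. The lowest log2 ratio among G1 cyclins and kinases in H460, -2.75, belongs to a gene not named here. The cells, the lists and the genes were chosen with earlier results of these data known.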

Additional observations from a re-analysis of the deposited data

Results flagged for a closer look

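DDIT4, an mTORC1 inhibitor induced by stress and hypoxia, ran in opposite directions between cultures when low cells were set against the whole rest. It had 230 CPM in low cells and 61.7 CPM in the rest of mdR-H460 (log2 ratio 1.90), 33.1 and 52.8 CPM in ldR-H460 (-0.67), and 89.8 and 42.9 CPM in H460 (1.07). From bin 1 to bin 5 of the score, DDIT4 in ldR-H460 had 33.1, 36.5, 36.2, 48.9 and 86.4 CPM. Low cells there were thus near bins 2 and 3, and the gap lay with the bins of highest score. In H460, bin 2 had 104 CPM of DDIT4, above low cells, and in mdR-H460 it had 157 CPM, below them. TRIB3, a pseudokinase induced by the integrated stress response, had 137 and 72.7 CPM in mdR-H460 (0.91), 56.3 and 87.2 CPM in ldR-H460 (-0.63), and 69.2 and 46.1 CPM in H460 (0.59). HSPA1A, an inducible HSP70 with a near-identical copy that makes its level uncertain, had 75.7 and 30.8 CPM in mdR-H460 (1.30), 12.7 and 26.3 CPM in ldR-H460 (-1.05), and 40.3 and 46.6 CPM in H460. Each passed 1.5-fold one way in mdR-H460 and the other way in ldR-H460. Without the cells high in HSPA6 plus DDIT3, the values in mdR-H460 were 62.2 and 39.5 CPM for DDIT4, 61.0 and 57.3 CPM for TRIB3, and 13.4 and 22.9 CPM for HSPA1A, which is then lower in low cells of both derived cultures. With depth matched, DDIT4 had 144 and 69.0 CPM in mdR-H460 and 34.7 and 53.1 CPM in ldR-H460. TRIB3 was then under 1.5-fold in both, with 110 and 74.1 CPM in mdR-H460 and 71.0 and 84.7 CPM in ldR-H460, and HSPA1A was under it in mdR-H460, with 48.5 and 33.8 CPM. The difference between cultures was not tested, since each is 1 library.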

How the results depend on the processing

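No paired analysis was possible because each culture has 1 library and the labels give no replicate numbers. For the same reason no library could be left out. Of 167 counts of genes recomputed under other settings, 121 stayed within 1.5 times and 46 did not. Of 666 list medians past 1.5-fold, 587 kept direction and fold, and of 3565 such gene ratios 3471 did. The common H460 cut, the bins of depth and leaving out the stress-gene cells alone were chosen after seeing the data. The causes were not tested, except that a lower CPM filter admits more genes.

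Genes apart between low cells and the rest of mdR-H460 numbered 2075, against 3763 at 2 CPM, 7195 with no CPM filter and 823 within bins of depth. In ldR-H460 they numbered 1370, against 2521 for the lowest 10%, 653 for the lowest 30%, 721 at 10000 UMIs or more, 2650 with 1 pooled cut, 909 at 20 CPM, 2593 at 2 CPM, 5312 with no filter, 2795 with the H460 cut and 654 within bins of depth. In H460 they numbered 1123, against 2198 at 2 CPM and 5125 with no filter. Genes higher in all 3 numbered 81, against 149 with the pooled cut, 139 with DESeq2 factors, 169 without mitochondrial and ribosomal totals, 45 at 20 CPM, 263 at 2 CPM, 727 with no filter and 35 within bins of depth. Genes lower in all 3 numbered 522, against 280 for the lowest 30%, 332 at 10000 UMIs or more, 865 with no filter and 269 within bins of depth.

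Between low cells, mdR-H460 against H460 gave 569 genes, against 349 at 20 CPM, 1402 at 2 CPM and 2754 with no filter. ldR-H460 against H460 gave 1012, against 657, 2167 and 3661 under the same filters. ldR-H460 against mdR-H460 gave 746, against 470, 1766 and 3152, and 480 within bins of depth. Genes whose fold differed between low cells and the rest numbered 760 for mdR-H460 against H460, against 451, 2053 and 3852 under those filters and 403 within bins of depth. For ldR-H460 against H460 they numbered 698, against 373, 1898 and 3802, and 1341 for the lowest 10%, 1359 with the pooled cut, 1057 without mitochondrial and ribosomal totals and 1620 with the H460 cut.

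Of 6075 recomputed log2 values, 121 had another sign than reported, in 41 of 366 results. In 35 of these the reported value was under 1.5-fold, as for p53 targets in mdR-H460 (0.28, and -0.035 without stress-gene cells). The 8 values from the other 6 follow. Without secretory or stress cells, TRIB3 in mdR-H460 was at -0.021 and HSPA1A at -0.72, and without stress-gene cells alone HSPA1A was at -0.77. In ldR-H460 against H460 low cells, the G2 and mitosis list was at -0.11 and the S phase list at -0.28 with the pooled cut, and the S phase list at -0.35 with the H460 cut. In ldR-H460 against mdR-H460 these lists were at -0.068 and -0.028 with the pooled cut. Depth also limits the choice of low cells: 1 UMI is a large part of a score near 0.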
